A study of Mus musculus with 10 samples.

Results

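Actb encodes β-actin, the actin of the cytoplasm that most cell types make in large amounts. Its transcript was read by 1 probe (CUST_9_PI419532418, designed on the RefSeq transcript NM_007393.3), 1 of the 59709 probes analysed, and this probe was printed at 20 positions on every array. The probe was taken by its name, and the gene was chosen by its levels in cultured cells, where it stood more than 2-fold below day 0 on every later day. Those levels are therefore given as a description and not tested.

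RNA had been hybridised to 10 one-colour arrays, 1 per sample. Differentiating wild-type brown adipocytes in culture had 1 array each at days 0, 3, 5 and 7. White adipose tissue (WAT) and brown adipose tissue (BAT) came from wild-type, chow-fed mice injected daily for 7 days. The groups were WAT after CL, a compound that activates the β3-adrenergic receptor and was given at 1 mg/kg, BAT after saline and WAT after saline, with 2 arrays each that are labelled biological replicates. The labels do not say whether a replicate was 1 mouse or a pool, which white depot was taken, or whether the cells were primary or a line, and they give no strain or age. If the replicates were not separate mice, the p-values below measure only the spread between these samples.

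Actin monomers polymerise into filaments that give a cell its shape, its adhesion and its contractility. A fibroblast-like preadipocyte carries filament bundles known as stress fibres, and it rounds up and takes down these bundles as it becomes a fat cell. Actb transcription in mammals is driven in part by serum response factor, whose coactivators of the MRTF family are held back by unpolymerised actin, so that the gene responds to the state of its own product. Actb is also widely used as a reference gene, a transcript taken as constant so that others can be measured against it.

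All arrays carried the Actb signal far above background. Every one of the 200 Actb spots was marked well above background and 0 spots were saturated. The brightest, on the day 0 array, reached 13.0% of the saturation value. The probe sequence is not given in the files used here, and the closely related transcript of γ-actin and processed Actb pseudogenes may add to this signal. Levels are given as log2 of the background-subtracted signal, averaged over the spots without an outlier mark, after the 75th percentile of all probes on that array was subtracted. A difference of 1 on this scale is a 2-fold difference.

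Between 55.1% and 78.3% of probes were well above background per array. Replicates correlated at r = 0.939 in CL-treated WAT, 0.980 in BAT and 0.983 in saline WAT across the probes tested. Correlations of CL arrays with saline WAT arrays, at r = 0.951 to 0.977, exceeded that of the CL pair. All tissue arrays were scanned together and the cell arrays in a separate scan, so cells and tissues cannot be told apart from their scans. Among the tissue arrays, both CL arrays had a first position number of 2 and the saline arrays 1, so treatment and position cannot be told apart. BAT saline held second position numbers 1 and 2, and WAT saline 3 and 4, so tissue and position cannot be told apart either. On the cell arrays, days 0, 3, 5 and 7 held second position numbers 1, 2, 3 and 4, so day and position cannot be told apart. Of 27 markers of brown, white and precursor fat cells and of other cell types in fat, 0 were measured under their names, so the labelled tissues could not be checked against defining markers.

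Actb was high at day 0 of brown adipocyte differentiation, lowest at day 3 and higher again at days 5 and 7. Its level was 8.17 at day 0, 5.93 at day 3, 6.37 at day 5 and 7.01 at day 7. In units of signal, the geometric mean over spots was 96071 at day 0, 22958 at day 3, 34610 at day 5 and 45417 at day 7. Day 0 thus stood above every later day, and days 3, 5 and 7 followed each other upwards without reaching it.

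Against day 0, Actb was 4.73-fold lower at day 3 (log2 difference -2.24), 3.49-fold lower at day 5 (-1.80) and 2.24-fold lower at day 7 (-1.16). From day 3 to day 5 the log2 difference was 0.44, and from day 5 to day 7 it was 0.64. By day 7 the level had regained 48.1% of the day 3 drop on the log2 scale. With 1 array per day there is no replicate check on any of these differences. In bulk RNA, fewer cells that express a gene and less RNA per cell cannot be told apart.

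The spots show how precisely each array measured the probe, though not how much cultures vary. The SD over spots was 0.04 at day 0, 0.07 at day 3, 0.10 at day 5 and 0.11 at day 7. The lowest spot at day 0 was 8.07, and the highest spot on any later day was 7.17, at day 7. Spots of different days did not overlap between any pair of days. At the 19 positions kept on both arrays, the log2 difference of day 3 from day 0 lay between -2.36 and -2.08, and that of day 7 from day 0 between -1.29 and -0.95.

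**Figure D1:**
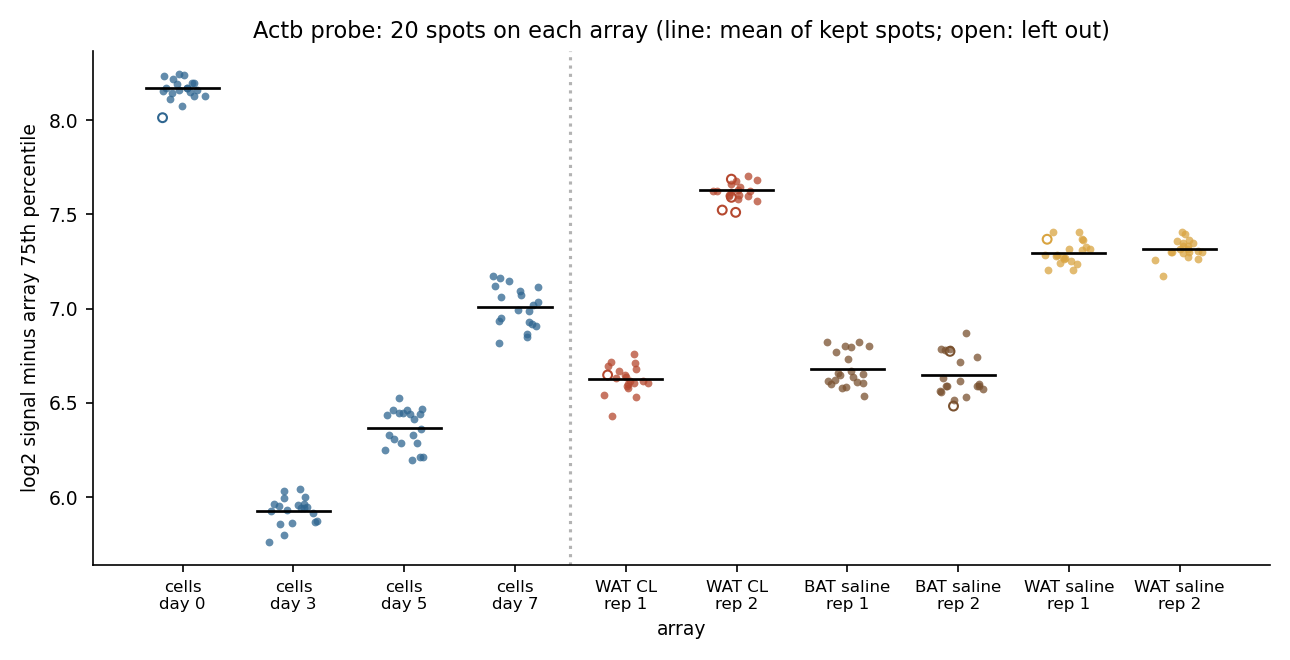
Log2 Actb signal minus the array's 75th percentile (vertical axis) for each of the 20 spots on each of the 10 arrays (horizontal axis). Lines are means of the spots kept and open circles are spots with an outlier mark. The day 0 spots lie above all others, the day 3 spots below all others, and the 2 CL arrays lie apart with the saline WAT arrays between them.

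Other probes measured in the cells also stood at least 2-fold below day 0. Of 48586 probes, 10.5% were at least 2-fold lower at day 3 than at day 0, and 3.10% were as low as Actb or lower. Being at least 2-fold lower on each of days 3, 5 and 7 held for Actb and for 6.2% of these probes, and 5.36% were at least 2-fold higher on each day. Since that pattern drew attention to the gene, nothing is read from the share. The median probe differed from day 0 by -0.16 at day 3, -0.27 at day 5 and -0.13 at day 7 on the log2 scale.

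The probe belongs to a custom set of 15 genes, each printed at 20 positions, most of them known as reference genes. In this set Actb stood furthest below day 0 on each later day. At day 3 the other 14 differed from day 0 by -0.66 to 1.75, with a median of -0.34 and 0 of them 2-fold lower. Next to Actb came Gusb, the lysosomal enzyme β-glucuronidase, at -0.66, -1.08 and -0.85 on days 3, 5 and 7, which misses a 2-fold difference on days 3 and 7.

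Another cytoskeletal gene of the set did not share the depth of this drop. Tuba1b, which encodes an α-tubulin of the microtubules, had levels of 9.57, 9.10, 9.29 and 9.63 at days 0, 3, 5 and 7. Its log2 difference from day 0 was -0.47 at day 3 and 0.06 at day 7. Like Actb, it was lowest at day 3 and higher on each later day.

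Other common reference genes moved less or in the opposite direction. Ppia, the prolyl isomerase cyclophilin A, differed from day 0 by -0.29 at day 3 and -0.02 at day 7. Hprt, a purine salvage enzyme, differed by -0.32 and -0.13 on the same days, and Gapdh, of glycolysis, by 0.41 and 0.44. Tfrc, the transferrin receptor that imports iron, stood above day 0 by 0.58 and 1.15, and the glucose-6-phosphate dehydrogenase retrocopy G6pd2 by 1.75 and 1.56.

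**Figure D2:**
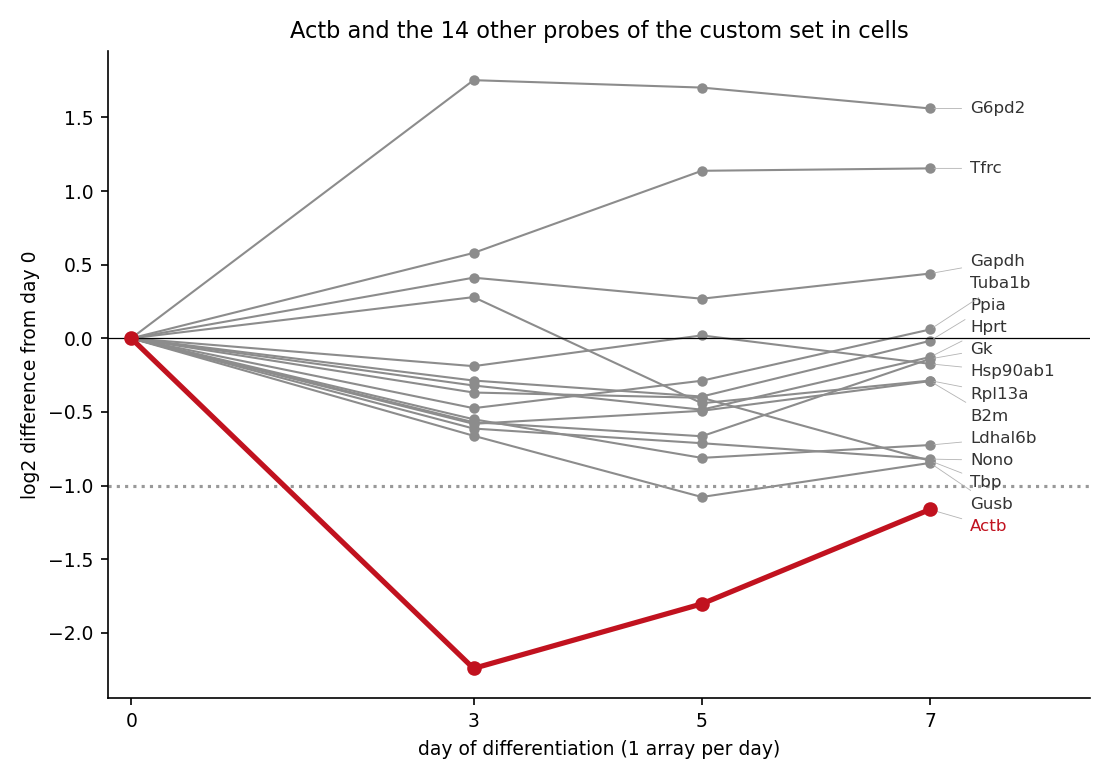
Log2 difference from day 0 (vertical axis) by day of differentiation (horizontal axis, 1 array per day) for Actb (red) and the 14 other probes of the custom set (grey), with a dotted line at 2-fold lower. Actb is at -2.24 on day 3 and -1.16 on day 7, below the other 14 throughout.

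The difference between 2 probes on 1 array does not depend on a scaling that subtracts 1 value per array. Other processing, such as quantile normalization, can change it. The log2 signal of Actb minus that of another probe of the set was lower at day 3 than at day 0 against 14 of the 14. These changes ran from -4.00 (against G6pd2) to -1.58 (against Gusb), with a median of -1.90. At day 7 they ran from -2.72 to -0.32, again below 0 against all 14. At day 7 compared with day 3 the change was above 0 against all 14, from 0.51 to 1.65. Of the 48586 probes measured in the cells, 96.9% had a day 3 difference from day 0 at or above that of Actb. At day 7 this share was 90.4%, and from day 3 to day 7 96.2% had a difference at or below that of Actb. The counts among the 14 are near these shares and restate the drop for which the gene was chosen, so nothing is read from them.

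In the tissues Actb was lower in BAT than in WAT of saline-injected mice by an amount that did not pass the test. The BAT arrays read 6.68 and 6.65 and the saline WAT arrays 7.30 and 7.31. The BAT arrays both lay below the saline WAT arrays, with no overlap, which held in either direction for 72.6% of the probes compared and in this direction for 40.5%. The means were 6.66 ± 0.02 in BAT and 7.30 ± 0.01 in saline WAT (SD, n = 2 each). The log2 difference was -0.64 (95% interval -1.63 to 0.35, limma adjusted p = 0.349).

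At an adjusted p under 0.05 limma called 10.4% of the 43525 probes tested in this comparison, and 4.87% of the probes tested were called as lower in BAT. The fit used 1 estimate of spread over all 3 tissue groups for each probe, moderated towards that of all probes. Of Actb's own spread in it, the CL pair gave nearly all, with an SD of 0.71 against 0.02 in BAT and 0.01 in saline WAT. Leaving the CL arrays out of the fit cannot change the difference between the saline groups. With only those groups the limma adjusted p was 0.084, in a fit that called 14224 of the 43525 probes. Without any scaling the difference was -1.08 (limma adjusted p = 0.207). Scaled to the median of the other 14 probes of its set, it was -0.24 with overlapping arrays (limma adjusted p = 0.874). The share of probes above background also moved with tissue. It was 55.1% and 67.8% on the BAT arrays against 74.0% and 77.2% on the saline WAT arrays, and its part in the result was not tested.

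Other genes of the set shared the direction. Of the 14, 9 had a lower mean in BAT than in saline WAT and 5 had a log2 difference below that of Actb. Over all probes tested the median difference was -0.12. Of these probes, 56.1% had a difference of 0.02 or lower and 30.0% were as low as Actb or lower. The counts in the set are not far from these shares, so nothing is read from them. Tuba1b was at 8.09 ± 0.23 in BAT and 9.08 ± 0.03 in saline WAT (SD, n = 2 each), a log2 difference of -0.99 (limma adjusted p = 0.182). The change of Actb relative to each of the 14 within arrays had a median of -0.31, below 0 against 9 and above 0 against 5. Relative to Gk, glycerol kinase, the only one of the 14 called, Actb changed by -3.07 in BAT, and relative to Gusb by 0.70.

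The 2 CL arrays gave opposite readings for Actb. They read 6.62 and 7.63, one below and the other above the saline WAT arrays at 7.30 and 7.31. The means were 7.13 ± 0.71 after CL and 7.30 ± 0.01 after saline (SD, n = 2 each). The log2 difference of -0.18 (95% interval -1.17 to 0.81) was smaller than the gap between the CL replicates, at a limma adjusted p near 1 (0.9999). The groups overlapped, whereas the arrays of these groups lay apart for 28% of probes. Taken singly, CL replicate 2 gave 0.32 and CL replicate 1 gave -0.68 against saline WAT (limma adjusted p = 0.617 and 0.211).

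No probe reached an adjusted p under 0.05 for CL in this limma fit (0% called), where 2375 of 43525 (5.46%) had an unadjusted p under 0.05. The fit with normexp background correction called 31 probes.

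The gap between the CL replicates came with a gap in scaling. The 75th percentile of the array was 9.19 for CL replicate 1 and 7.88 for CL replicate 2. Before scaling, Actb read 15.82 on replicate 1 and 15.51 on replicate 2, beside 15.57 and 15.73 on the saline WAT arrays. Unscaled, the CL and saline means differed by 0.01 on the log2 scale.

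The difference of Actb from other genes of the set was alike on both CL arrays for some genes and not for others. Over the 14 the median size of its change between these arrays was 0.55, and the genes named next have the smallest and largest changes. The log2 difference of Actb from Ppia changed by 0.02 between the CL replicates, from B2m by -0.03, from Tuba1b by -0.06 and from Gapdh by 0.13. Against others it did not hold still: it changed by 1.70 against Nono, 1.79 against Tbp, 2.04 against Hsp90ab1 and 2.48 against G6pd2. Over all tested probes the median gap of replicate 2 over replicate 1 was 0.52, and 22.7% of probes had a gap as high as that of Actb or higher.

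The rank of Actb within an array needs no scaling between arrays, but it is set against all probes of that array, and the share of these above background differed between arrays. Actb was among the brightest 2.20% and 1.90% of probes on the CL arrays, the brightest 2.56% and 2.64% on the BAT arrays and the brightest 1.66% and 1.74% on the saline WAT arrays. CL replicate 2 thus lay above saline WAT by level and below it by rank, and no order of the tissues is read from the ranks. In units of signal, the geometric mean over spots was 57774 and 46528 on the CL arrays, 21846 and 27178 on the BAT arrays and 48552 and 54460 on the saline WAT arrays. By unscaled signal the BAT arrays were the dimmest of the 6.

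Between CL-treated WAT and BAT, where tissue and treatment both differ, Actb was not separated either. The CL arrays at 6.62 and 7.63 enclosed the BAT arrays at 6.68 and 6.65, so the groups overlapped, whereas 49.7% of probes had arrays that lay apart. The log2 difference was 0.46 (95% interval -0.53 to 1.45, limma adjusted p = 0.558), and 3.5% of probes were called in this comparison. It was 1.09 without scaling and 0.087 scaled to the median of the other 14 probes (limma adjusted p = 0.244 and 0.958). This comparison shares its BAT arrays and its CL arrays with the other tissue comparisons.

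**Figure D3:**
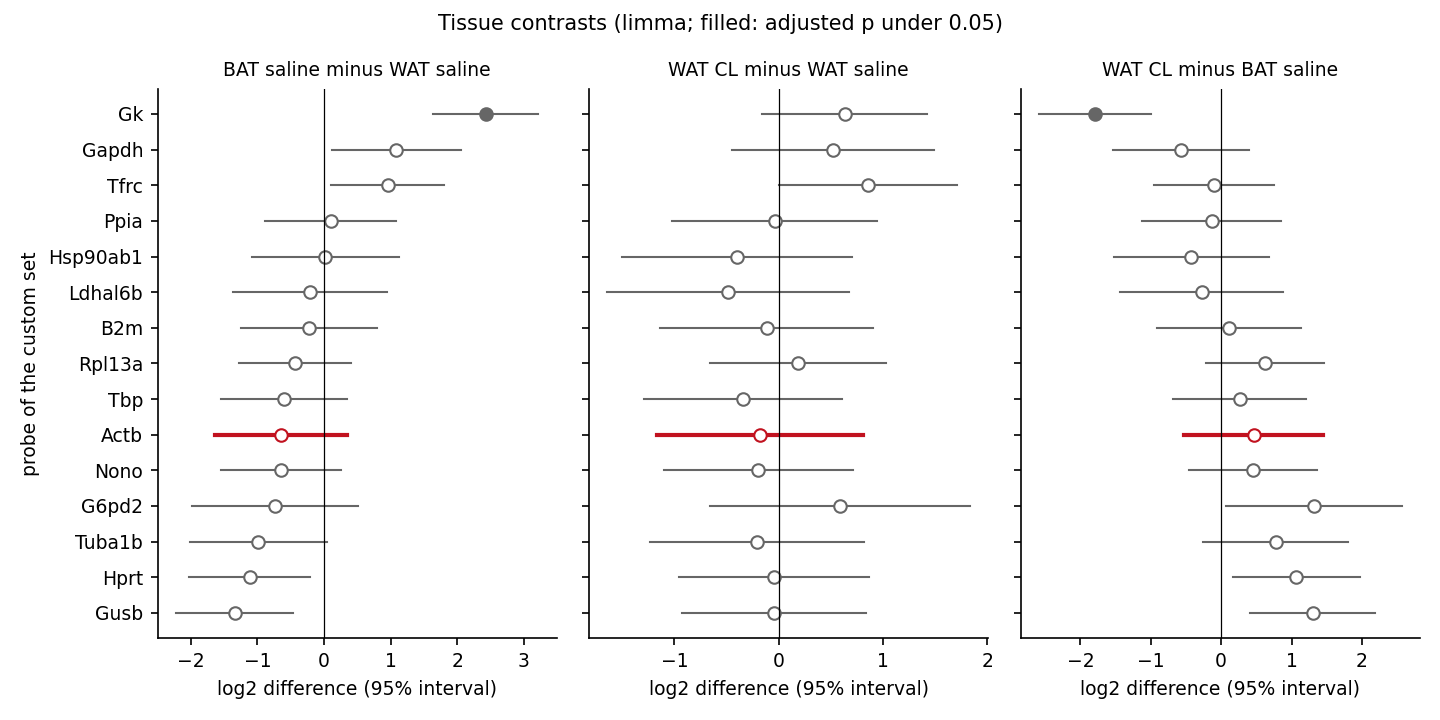
Log2 difference with its 95% interval from limma (horizontal axes) for the 15 probes of the custom set (vertical axis, ordered by the first panel) in 3 tissue comparisons, 2 arrays per group. Actb (red) has intervals that include 0 in all 3 panels. Filled points mark an adjusted p under 0.05, which Gk alone has, in BAT against saline WAT and in CL-treated WAT against BAT.

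Ordered by their means, the 7 conditions ran from day 0 (8.17) through saline WAT (7.30 ± 0.01), CL-treated WAT (7.13 ± 0.71), day 7 (7.01) and BAT (6.66 ± 0.02) to day 5 (6.37) and day 3 (5.93). Saline WAT, CL-treated WAT, day 7 and BAT cannot be put in order with CL-treated WAT among them, because its 2 arrays span the other 3. Day 0 lay 0.87 above the next condition and day 3 lay 0.44 below the next, both on single arrays and, for day 0, across scans. The order of cells and tissues depended on scaling. Day 0 was highest under 11 of the 12 settings tried, and scaled to the median of the other 14 probes it lay below the means of all 3 tissue groups. Day 7 lay above BAT under 9 of the 12 and below it under quantile normalization and under both scalings to genes of the set.

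The day order within the cells did not depend on scaling. Actb was highest at day 0, then lower in the order day 7, day 5 and day 3 under each of the 12 settings. The log2 difference of day 3 from day 0 lay between -2.29 and -2.07, that of day 5 between -1.86 and -1.47, and that of day 7 between -1.45 and -0.93. A 2-fold difference on all 3 days was kept under 10 settings and missed at day 7 with median scaling (-0.98) and with scaling to the median of the other 14 probes (-0.93).

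**Figure D4:**
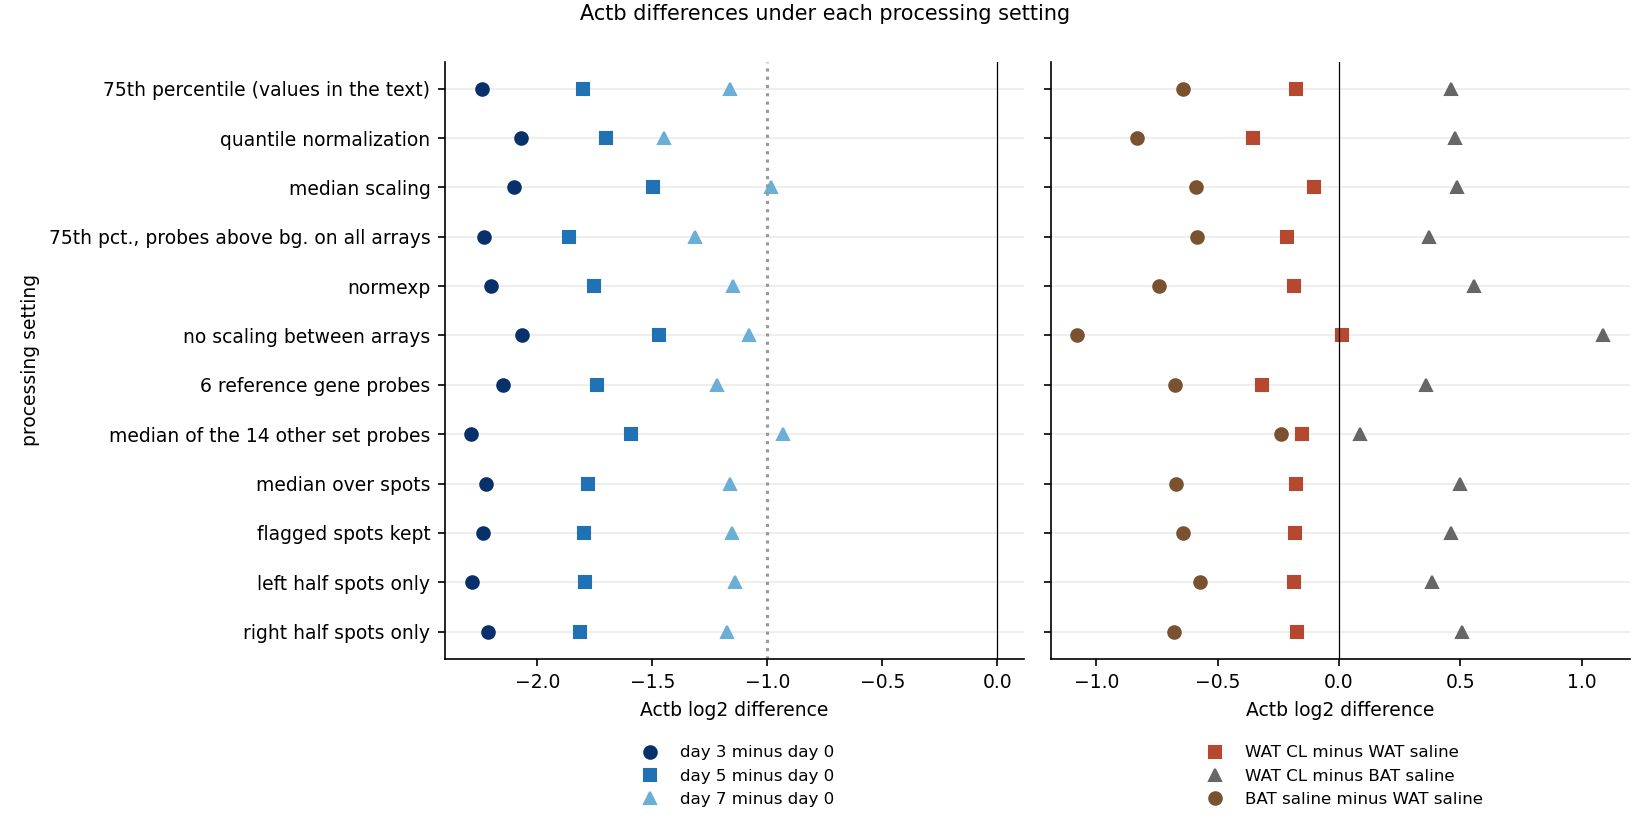
Actb log2 differences (horizontal axes) under 12 processing settings (vertical axis), for cells against day 0 (left, dotted line at 2-fold lower) and for the tissue comparisons (right). Day 3 keeps to -2.29 to -2.07, and the CL against saline WAT difference lies near 0, at -0.36 to 0.01.

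Across all 10 arrays, the probes with a gene symbol whose levels followed Actb most closely were those for Aida, Gm13305, Dhrsx, Brox and B2m. Likeness was the root mean square difference from Actb after each probe was centred on its own mean, among 77 probes that were well above background on every array. It was 0.32 for Aida, 0.35 for Gm13305, 0.41 for Dhrsx, 0.42 for Brox and 0.45 for B2m, where Actb itself varied about its mean by 0.62. Pearson's r with Actb over the 10 arrays was 0.89, 0.82, 0.91, 0.74 and 0.75 in the same order of genes. These arrays belong to 7 conditions and share their scaling, so the values describe likeness only.

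Aida, named as an interactor of the scaffold protein axin, came closest in the cells. It had levels of 3.46, 0.92, 1.75 and 2.03 at days 0, 3, 5 and 7, a day 3 drop of the same kind with the same upward order afterwards. In the tissues it read 2.41 and 2.29 in CL-treated WAT, 1.48 and 1.63 in BAT and 2.70 and 2.71 in saline WAT, so that, unlike Actb, its CL arrays lay close together. B2m, the light chain of MHC class I molecules, followed the day order at less depth, with 9.62, 9.04, 9.13 and 9.33 at days 0, 3, 5 and 7.

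Genes that act with actin could not be followed by name. Of 77 genes on lists of actins, actin assembly factors, actomyosin and stress fibre components and serum response factor targets, 1 was measured under its name, Actb itself. The files give 59593 probes no accession that leads to a gene symbol, and transcripts of the listed genes may be among them.

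The repeated spots also show where on the array the processed (background-subtracted) signal varied. The SD over spots lay between 0.04 and 0.11 on the 10 arrays, a coefficient of variation of 2.60% to 7.48%. On the tissue arrays, spots on the left side (columns 1 to 82) were brighter than those on the right by 0.04 to 0.20, with 0.16 and 0.20 on the BAT arrays, 0.09 and 0.04 on the CL arrays and 0.08 and 0.07 on the saline WAT arrays. On the cell arrays that difference was -0.05 to 0.05, and spots in the middle (columns 21 to 130, chosen after their values were seen) were brighter than those nearer both edges by 0.04, 0.09, 0.18 and 0.18 at days 0, 3, 5 and 7. With left-side spots alone the BAT minus saline WAT difference was -0.57, and with right-side spots alone it was -0.68. The tilt is described for the processed signal only. On BAT replicate 1 the median intensity of the spot before processing was 18508 at column 2, 24113 at column 122 and 20105 at column 162.

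**Figure D5:**
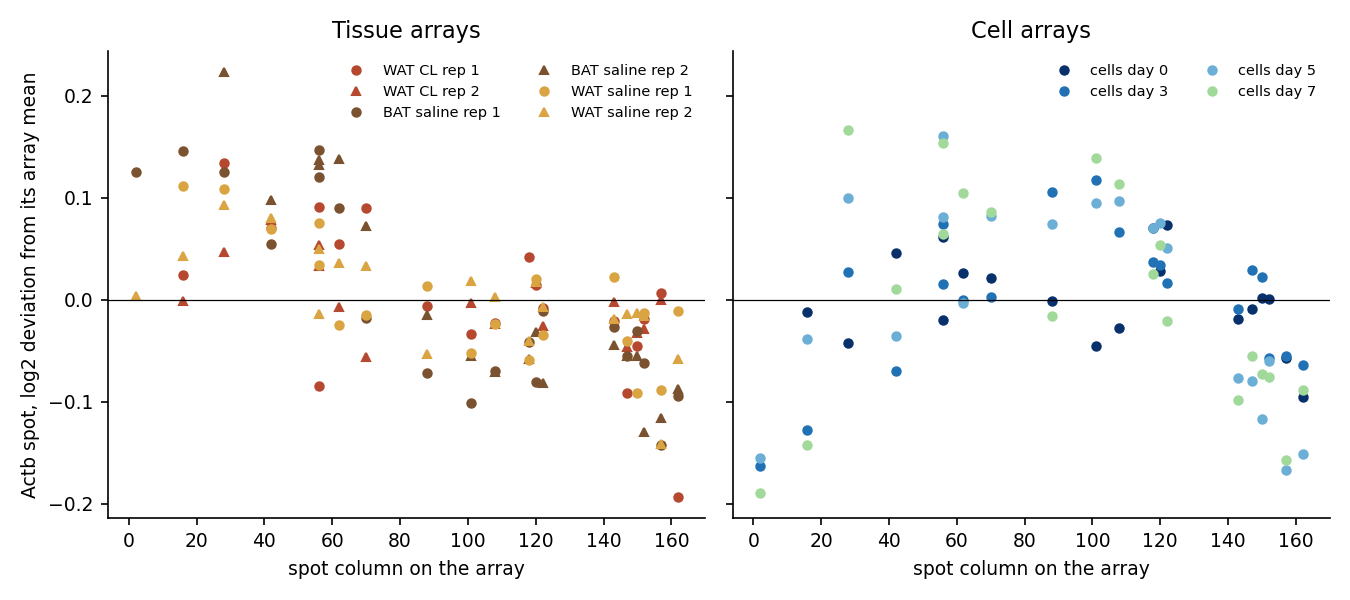
Deviation of each kept Actb spot from the mean of its array on the log2 scale (vertical axes) against the spot's column on the array (horizontal axes), for tissue arrays (left) and cell arrays (right). In this processed signal, tissue spots tilt downwards from left to right, most on the BAT arrays. Cell spots at days 3, 5 and 7 are higher in the middle than at the edges.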

How the data were processed

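The deposited files hold spot intensity values written by Agilent Feature Extraction 11.0.1.1, per the file headers, as a background-subtracted processed signal with flags for background, outliers and saturation; the submitters' processing notes name version 9.1, and which version made the final values is not settled. The deposited value table does not list the Actb probe, and its values were not used. Gene names came from RefSeq accessions matched without versions to a table on GRCm38.p6 (116 of 123 matched 1 symbol); the array design is annotated on mm9, so no coordinates are given.

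Control spots, 1200 spots of 20 negative control probes (10.9% to 36.4% of which passed the background flag) and outlier spots (9 of 200 for Actb) were left out, and spots of a probe were averaged on the log2 scale. Values are log2(signal) minus the array's 75th percentile. limma 3.58.1 in R 4.3.3 (lmFit, eBayes, 3 residual and 4.46 prior degrees of freedom) was fitted to the 6 tissue arrays. It covered the 43525 probes that passed the background flag on every array of 1 or more groups. Tests were two-sided, with Benjamini-Hochberg adjustment over those probes. The code was run on simulated data with differences larger than that of Actb and spreads held at or below the median spread. That run does not cover a difference or a spread like those of Actb. Cells were described over the 48586 probes above background on at least 1 cell array. The number of arrays limits the precision. Named genes are Actb, the other probes of its custom set, the 5 most like probes with a symbol, and listed actin genes where measured. The gene and the lists were chosen with earlier results of these data known.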

Additional observations from a re-analysis of the deposited data

How the results depend on the processing

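Tissue comparisons of Actb stayed above an adjusted p of 0.05 by limma under all 22 alternatives. For BAT against saline WAT the log2 difference kept its sign, at -1.08 to -0.24 (limma adjusted p = 0.0781 to 0.874). The replicate block, both changes of probe filter, the array weights and leaving out CL arrays could not move this difference from -0.64. For CL against saline WAT the sign turned with no scaling (0.012) and without CL replicate 1; leaving out 1 array gave -0.68 to 0.32. For CL-treated WAT against BAT it turned without CL replicate 2, with -0.038 to 0.96 on leaving out 1 array (up to 1.09 over all settings), and BAT against saline WAT gave -0.66 to -0.63. The cause was not tested. Deviations of same-numbered replicates had r = -0.08 (CL and BAT), 0.50 (CL and saline WAT) and -0.02 (BAT and saline WAT), and no label ties same-numbered samples, so they were not taken as pairs. With a replicate block the differences were -0.64, -0.18 and 0.46 (limma adjusted p = 0.314, 0.9997 and 0.515), and calls numbered 6234, 1 and 2197. In the cells the day 3 difference was -2.07 with quantile normalization, -2.10 with median scaling, -2.07 unscaled and -2.15 scaled to 6 reference genes. At day 5 it was -1.50 with median scaling, -1.47 unscaled and -1.59 scaled to the other 14 probes (chosen after seeing the data, as were the sides of the array). At day 7 it was -1.45 with quantile normalization, -0.98 with median scaling, -1.32 with the percentile over probes above background on all arrays and -0.93 scaled to the other 14. Of the 5 most like probes, 1 stayed on tissue arrays alone and 2 on cell arrays alone.

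Calls for BAT against saline WAT numbered 4527 (2409 higher, 2118 lower), and 1578 unscaled (438 higher, 1140 lower), 5002 scaled to the other 14 (3390 higher, 1612 lower), 1385 with no filter, 16415 with array weights, 14224 with 2 groups or without either CL array, 321 and 635 without BAT replicate 1 and 2, and 523 and 881 without saline WAT replicate 1 and 2. For CL they numbered 0, with 31 by normexp, 226 scaled to the other 14, 2 over probes above background on all tissue arrays and, leaving out 1 array, 4 and 109 without saline WAT replicate 1 and 2. For CL-treated WAT against BAT they numbered 1523 (866 higher, 657 lower), with 863 unscaled (689 higher, 174 lower), 3020 scaled to the other 14 (1088 higher, 1932 lower), 2072 scaled to 6 genes (808 higher, 1264 lower), 544 with no filter, 254 with array weights, 999 with 2 groups or without either saline WAT array, 209 and 291 without BAT replicate 1 and 2, and 2366 and 11515 without CL replicate 1 and 2. A lone array is assumed to vary like the other groups. Lowered probes in cells numbered 3014 (2602 raised), with 1568 by normexp (1605 raised), 2346 by median scaling (3347 raised) and 1816 above background on all cell arrays. A scan block (tissue arrays shared 1 scan) and the deposited value table were not run.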

Other observations

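The custom set of 15 probes, most of them for known reference genes, shows how these cells would read with Actb as the sole reference. Scaled to Actb alone, 14 of the 14 other probes read higher at day 3 than at day 0, by 1.58 (Gusb) or more on the log2 scale. At day 7, 14 of 14 read higher, by 0.32 to 2.72. Of all probes measured in the cells, 96.9% at day 3 and 90.4% at day 7 had a difference from day 0 at or above that of Actb. The counts are near these shares and restate the drop for which Actb was chosen. Scaled to the 75th percentile of the array, 10 of the 14 read lower at day 3 and 10 read lower at day 7. The median of all probes measured in the cells was also below day 0, at -0.16 on day 3 and -0.13 on day 7. The share of all probes that read lower was not computed, so nothing is read from the 10 of 14. Rpl13a, a ribosomal protein gene, read 2.52 higher at day 3 relative to Actb and 0.28 higher relative to the percentile. In the tissues, scaled to Actb, the other 14 read between 0.70 lower and 3.07 higher in BAT than in saline WAT.

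Of the 3014 probes at least 2-fold below day 0 on days 3, 5 and 7, 844 (28.0%) had the day order of Actb, lowest at day 3 and higher at each later day. Within each array, Actb ranked among the brightest 1.28% of probes at day 0 and the brightest 3.71% at day 3. This reading uses no scaling between arrays, but it is set against all probes of each array. Of these, 73.5% were above background at day 0 and 78.3% at day 3.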
